A study of Mus musculus with 100 samples.

Results

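The tissue inhibitors of metalloproteinases were followed as 5 genes, Timp1, Timp2, Timp3, Timp4 and Reck, out of the 17310 genes of a count table from mouse knee joints. The genes were taken by their names in the table, and all 5 were present. Right knees of 10 weeks old MRL/MpJ, C57BL/6 and STR/ort mice were injured by a single compression of the tibia at 10 to 12 N, which ruptures the anterior cruciate ligament. Joints of mice without injury were taken at 0-day, and both the injured and the contralateral joints of each strain at 3 later times, named 1-day, 1-week and 2-weeks. MRL/MpJ is described in the labels as not susceptible to post-traumatic osteoarthritis and STR/ort as highly susceptible, and C57BL/6 is the common laboratory strain. The contralateral joints come from mice whose other knee was injured, so they are not untreated controls. Each of the 21 groups holds 5 libraries, except the 3 groups of 0-day and the contralateral joints of MRL/MpJ and STR/ort at 1-week, with 4 libraries each.

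Timp1 to Timp4 encode secreted proteins that block the active site of matrix metalloproteinases, the enzymes that cut collagen and other matrix proteins. Timp1 is the member most readily induced by inflammatory cytokines and growth factors. Timp2 both inhibits metalloproteinases and, together with the membrane protease Mmp14, takes part in the activation of Mmp2. Timp3 binds to the matrix and also inhibits aggrecanases and the sheddase Adam17, Timp4 is best known from heart, muscle and fat, and Reck is an inhibitor anchored to the cell membrane.

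The libraries held 6182016 to 20986027 counts, with a median of 10582592. The lowest count of a member in any library was 86 for Timp1, 1384 for Timp2, 1753 for Timp3, 9 for Timp4 and 83 for Reck, so Timp4 is measured with the least precision. The joint label was checked against Col2a1 of cartilage and Prg4 of synovium and superficial cartilage, whose lowest levels in any library were 577 and 306 CPM (counts scaled to library size). The muscle gene Acta1 reached 1697 CPM or more in every library, so the joints carried muscle as well. These are bulk samples, in which fewer cells of a type and less RNA per cell cannot be told apart. The libraries of 2-weeks are a separate experimental batch in the labels, so that time and batch cannot be told apart there. Only at 2-weeks do the labels name the animals, and elsewhere p values measure the spread between the samples, which may be technical.

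The promoters of the 3 members that responded to injury are shown here, since Timp1 and Timp2 were called higher and Timp4 lower in injured joints. Each window runs from 250 bases before the start site to 50 after it, as given by RefSeq on GRCm38.p6, the assembly of mm10, and a window was found for each of the 5 members. The Timp1 window is chrX:20869916-20870215 on the plus strand, the Timp2 window chr11:118355362-118355661 on the minus strand, and the Timp4 window chr6:115252156-115252455 on the minus strand. Capitals mark matches on either strand to AGGAAG (an Ets motif), GGGCGG (an Sp1 motif) and TGAGTAA (a variant AP-1 motif).
Timp1: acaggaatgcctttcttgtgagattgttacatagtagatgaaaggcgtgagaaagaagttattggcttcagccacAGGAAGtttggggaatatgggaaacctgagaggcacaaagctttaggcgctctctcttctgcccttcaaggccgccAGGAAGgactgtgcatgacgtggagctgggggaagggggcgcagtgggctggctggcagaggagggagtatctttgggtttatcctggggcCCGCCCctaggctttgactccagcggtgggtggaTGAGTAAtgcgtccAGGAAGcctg
Timp2: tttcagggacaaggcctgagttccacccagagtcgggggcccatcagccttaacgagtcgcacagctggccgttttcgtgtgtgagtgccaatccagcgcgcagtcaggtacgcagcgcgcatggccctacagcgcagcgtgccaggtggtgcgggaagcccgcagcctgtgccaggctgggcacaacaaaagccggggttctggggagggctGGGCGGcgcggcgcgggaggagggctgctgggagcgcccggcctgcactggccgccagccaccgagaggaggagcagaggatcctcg
Timp4: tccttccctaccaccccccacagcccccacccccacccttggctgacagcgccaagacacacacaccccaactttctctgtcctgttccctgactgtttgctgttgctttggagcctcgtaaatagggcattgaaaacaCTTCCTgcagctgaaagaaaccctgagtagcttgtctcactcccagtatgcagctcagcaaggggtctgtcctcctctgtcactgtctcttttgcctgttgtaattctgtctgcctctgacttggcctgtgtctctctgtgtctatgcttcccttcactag
The Timp1 window held 3 Ets matches, 1 Sp1 match and 1 match to TGAGTAA, which begins 27 bases into the transcript. The Timp2 window held 1 Sp1 match and the Timp4 window 1 Ets match. Of the members with 0 injury calls, the Timp3 window held 1 Ets and 2 Sp1 matches and the Reck window 3 Sp1 matches. TGAGTAA was found in 2.68% of the 32851 mouse promoter windows, AGGAAG in 35.4% and GGGCGG in 35.7%. The AP-1 motif TGANTCA was also searched on both strands and matched none of the 5 windows, against 7.81% of all windows. The STAT motif TTCNNNGAA (8.3% of all windows) and the letters TATAAA (13.6%), the core of a TATA box, likewise matched none. A match is a description of the letters only.

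Timp1 (chrX:20870166-20874737), Timp3 (chr10:86300412-86349505) and Timp4 (chr6:115244444-115252205) (RefSeq positions on GRCm38.p6) lie inside the synapsin genes Syn1, Syn3 and Syn2, on the opposite strand. In the GENCODE vM21 annotation of GRCm38, Timp1 shared 0 exon bases with Syn1, Timp4 shared 90 with Syn2 and Timp3 shared 1733 with Syn3. Whether the counting used strand is not given in the sources used here, so reads from shared exons cannot be assigned with certainty. Syn3 did not exceed 12 CPM and Syn2 did not exceed 4.8 CPM in any library. Timp3 was at 224 CPM or more, while the range of Timp4, 0.992 to 24.1 CPM, overlapped with that of Syn2.

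Over the 100 libraries Timp1 ranged from 10 to 299 CPM, a 29.8-fold range, and Timp4 from 0.992 to 24.1 CPM, a 24.3-fold range. Timp2 ranged from 211 to 1229 CPM, Timp3 from 224 to 619 CPM and Reck from 12.7 to 30.7 CPM. Timp1 and Timp4 were thus the variable members, and Timp3 and Reck the even ones. In the order of group means, Timp1 was highest in injured STR/ort joints at 1-day (241 ± 44 CPM, SD, n = 5) and lowest in contralateral MRL/MpJ joints at 2-weeks (12.7 ± 1.53 CPM, n = 5). Of the 20 neighbours in that order, 3 differed by more than the larger SD and 1 pair did not overlap. Timp2 was highest in injured STR/ort joints at 1-week (1080 ± 104 CPM, n = 5), where all libraries lay above those of every other group, and the count of neighbours that differed beyond their SD was again 3 of 20. For Timp3 it was 5, for Timp4 4 and for Reck 0 of 20.

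**Figure D1:**
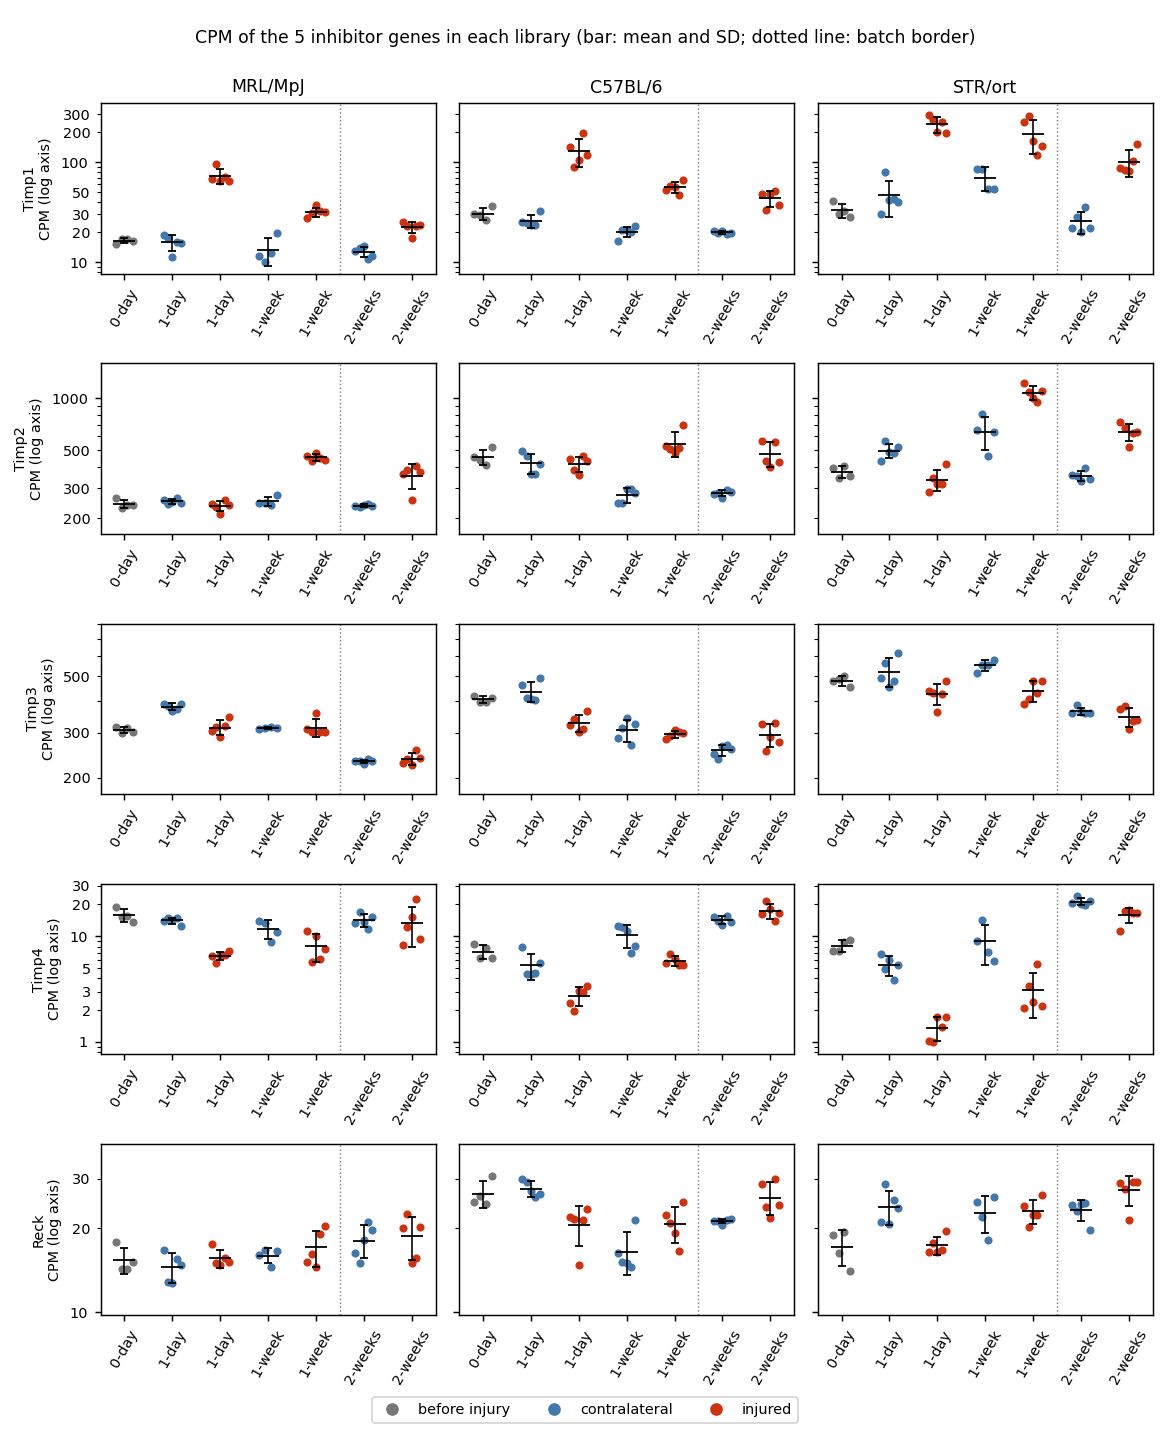
CPM (log axis) of the 5 genes in each library, by strain, time and joint, with the mean and SD of each group as black bars. Timp1 of injured joints (red) lies above that of contralateral joints (blue) at each time in each strain, while Timp4 is lowest in injured STR/ort joints at 1-day, at 0.992 to 1.72 CPM.

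Before injury, MRL/MpJ joints differed from both other strains in 3 of the 5 inhibitors, with less Timp1 and Timp2 and more Timp4. Timp1 was at 15.2, 17, 17.2 and 16.2 CPM in the 4 MRL/MpJ libraries, at 30.2, 29.7, 26.2 and 36.6 CPM in C57BL/6 and at 41, 30.5, 32.2 and 28.2 CPM in STR/ort. The MRL/MpJ libraries lay below all others, and C57BL/6 and STR/ort overlapped. By edgeR's quasi-likelihood test, with p values adjusted by Benjamini-Hochberg over all genes, Timp1 was 2.03-fold higher in STR/ort than in MRL/MpJ (log2 difference 1.02 ± 0.12, SE, adjusted p = 4.15e-06) and 1.93-fold higher in C57BL/6 (0.95 ± 0.12, adjusted p = 9.03e-06). Between STR/ort and C57BL/6 it differed by 0.07 ± 0.11 (adjusted p = 0.664). Calls in all comparisons needed both an adjusted p under 0.05 and a fold over 1.5.

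Timp2 was at 229 to 263 CPM in MRL/MpJ, 409 to 521 CPM in C57BL/6 and 346 to 406 CPM in STR/ort at 0-day, with no overlap between strains. It was called higher than in MRL/MpJ in STR/ort (log2 difference 0.63 ± 0.09) and in C57BL/6 (0.95 ± 0.09). Timp3, the matrix-bound member, was called higher in STR/ort than in MRL/MpJ (0.65 ± 0.07, adjusted p = 6.12e-07), and its difference of 0.44 between C57BL/6 and MRL/MpJ stayed under 1.5-fold. Timp4 went the other way. It was at 19, 15.4, 15.5 and 13.6 CPM in MRL/MpJ, against 6.19 to 8.51 CPM in C57BL/6 and 7.18 to 9.2 CPM in STR/ort, and was called lower in STR/ort (-0.98 ± 0.14) and in C57BL/6 (-1.12 ± 0.14) than in MRL/MpJ. Fast muscle markers were called lower in C57BL/6 than in MRL/MpJ for 8 of 8 genes, and in STR/ort for 1 of 8. Their summed level was 72147 to 87566 CPM in MRL/MpJ, 32933 to 53248 CPM in C57BL/6 and 75037 to 84972 CPM in STR/ort, and their part in the Timp4 difference was not tested. Reck was highest in C57BL/6, with 24.4 to 30.7 CPM against 14.3 to 17.8 CPM in MRL/MpJ (0.82 ± 0.12, called higher) and 14 to 19.4 CPM in STR/ort (STR/ort minus C57BL/6, -0.66 ± 0.11, called lower). The last call was lost without STR/ort replicate 4 (-0.58) or C57BL/6 replicate 4 (-0.58), both under 1.5-fold, and with 1 or 2 RUVg factors (-0.58 and -0.46). These factors estimate unwanted variation from housekeeping genes, here from counts not scaled to library size, so they may follow sequencing depth. Markers of fibroblasts of synovium and soft tissue were called higher than in MRL/MpJ for 6 of 9 genes in STR/ort and 7 in C57BL/6. Their summed level was 2324 to 2827 CPM in MRL/MpJ, 4478 to 7221 CPM in C57BL/6 and 5585 to 9649 CPM in STR/ort, without overlap of MRL/MpJ with the others. Erythroid markers were lower than in MRL/MpJ for 4 of 4 genes in STR/ort and 2 in C57BL/6, with sums of 3927 to 4863 CPM in MRL/MpJ, 2487 to 2966 CPM in C57BL/6 and 1795 to 1897 CPM in STR/ort. Bone markers were higher than in MRL/MpJ for 4 of 7 genes in C57BL/6 and 1 in STR/ort, with sums of 6739 to 9003 CPM in MRL/MpJ, 11290.0 to 16388 CPM in C57BL/6 and 7803 to 10332 CPM in STR/ort. Cartilage markers were higher for 7 of 8 genes in C57BL/6 and 1 in STR/ort, and fat markers for 3 of 6 and 1. Single macrophage markers were higher as well (4 of 8 and 1), but their sums overlapped, at 2296 to 2527 CPM in MRL/MpJ, 2195 to 2528 CPM in C57BL/6 and 1716 to 2420 CPM in STR/ort. Of 8 neutrophil markers, 1 was lower in STR/ort. The part of all these lists in the differences of the inhibitors was not tested. Between STR/ort and MRL/MpJ, 4 of the 5 members were called (3 higher in STR/ort), where the share over all genes was 14.8%. Between STR/ort and C57BL/6 it was 1 of 5 (13.8% of all genes), and between C57BL/6 and MRL/MpJ 4 of 5, of which 3 were higher in C57BL/6 (15.9%).

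Timp1 was the inhibitor that rose with injury throughout. At 1-day it was at 68.2, 95.6, 65, 71.2 and 64.4 CPM in injured MRL/MpJ joints and at 18.9, 17.6, 11.3, 16 and 15.7 CPM in contralateral joints. In C57BL/6 it was at 143, 90.1, 105, 194 and 118 CPM in injured and at 25.3, 24.8, 23.6, 23.3 and 32.5 CPM in contralateral joints. In STR/ort it was at 299, 261, 200.1, 250 and 194 CPM in injured and at 30.5, 78.9, 41.9, 42.8 and 39.6 CPM in contralateral joints. No injured library overlapped with the contralateral ones of its strain. The fold was 4.65 in MRL/MpJ (log2 fold change 2.22 ± 0.22, adjusted p = 2.93e-08), 5.03 in C57BL/6 (2.33 ± 0.20, adjusted p = 1.02e-09) and 5.1 in STR/ort (2.35 ± 0.20, adjusted p = 1.03e-09). Of the 5 members, Timp1 was called higher and Timp4 lower in each strain at 1-day, while 2.02% of all genes were called in MRL/MpJ, 5.6% in C57BL/6 and 4.31% in STR/ort. Macrophage markers were called higher at 1-day for 1 of 8 genes in MRL/MpJ, 4 in C57BL/6 and 1 in STR/ort, and fibroblast markers for 3, 5 and 0 of 9. The macrophage sums of injured and contralateral joints overlapped in each strain, and the fibroblast sums in STR/ort only. Neutrophil markers summed to 9693 to 12415 CPM in injured and 14034 to 17332 CPM in contralateral C57BL/6 joints, with 0 of 8 called. The part of these lists in the Timp1 difference was not tested.

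At 1-week Timp1 was at 27.7, 30.7, 36.9, 32.6 and 31.4 CPM in injured MRL/MpJ joints against 11.5, 10, 12.4 and 19.6 CPM in contralateral joints. Injured C57BL/6 joints had 46.7 to 66.2 CPM against 16.2 to 22.8 CPM, and injured STR/ort joints 117 to 287 CPM against 53.7 to 86.1 CPM. The log2 fold changes were 1.28 ± 0.23, 1.49 ± 0.20 and 1.46 ± 0.20, all called. At 2-weeks they were 0.81 ± 0.17 in MRL/MpJ (adjusted p = 0.0053), 1.14 ± 0.16 in C57BL/6 and 1.98 ± 0.15 in STR/ort (adjusted p = 1.83e-10). In STR/ort the 2-weeks libraries were at 86.9, 84, 80.9, 103 and 152 CPM in injured joints against 22, 28.5, 20.1, 35.5 and 21.8 CPM in contralateral joints. Timp1 was therefore called higher, without overlap of the groups, in 9 of 9 comparisons. The share of all genes whose groups did not overlap was not counted for any comparison. At 1-week 3.13%, 5.82% and 9.21% of all genes were called in MRL/MpJ, C57BL/6 and STR/ort, and at 2-weeks 1.16%, 2.95% and 4.66%.

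Timp2, the partner of Mmp14 in the activation of Mmp2, was not called at 1-day and was called higher at 1-week. At 1-day its level was 211 to 255 CPM in injured and 242 to 261 CPM in contralateral MRL/MpJ joints, and 359 to 462 CPM against 361 to 491 CPM in C57BL/6. Both pairs of groups overlapped, with log2 fold changes of -0.07 ± 0.09 and -0.01 ± 0.09. In STR/ort it was at 286, 343, 318, 318 and 413 CPM in injured and at 434, 561, 484, 481 and 519 CPM in contralateral joints. These groups did not overlap, and the log2 fold change of -0.58 ± 0.09 (adjusted p = 4.33e-05) lay just under the fold of 1.5. It passed that fold when libraries were scaled by housekeeping genes (-0.66), which moved the median of all genes by -0.0742, with the replicate number as a block (-0.59), and without injured replicate 2 or 5 or contralateral replicate 1 or 3 (-0.59 to -0.65).

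At 1-week Timp2 was at 463, 431, 480.5, 450.5 and 439 CPM in injured MRL/MpJ joints against 247, 245, 240.1 and 275 CPM in contralateral ones. Injured C57BL/6 joints had 478 to 702 CPM against 245 to 297 CPM, and injured STR/ort joints 956 to 1229 CPM against 464 to 809 CPM. No groups overlapped, and the log2 fold changes of 0.88 ± 0.12, 1.02 ± 0.11 and 0.75 ± 0.11 were called. At 2-weeks Timp2 was called higher in C57BL/6 (0.76 ± 0.10) and STR/ort (0.86 ± 0.10). The 2-weeks difference in MRL/MpJ was 0.57 ± 0.10 (adjusted p = 0.000683), under 1.5-fold. Without injured MRL/MpJ replicate 3, at 255 CPM against 364 to 404 CPM in the others, it was 0.67 and was called. It was also called without contralateral replicate 1 (0.60), with RLE factors (0.59), with DESeq2 (0.59) and with the filterByExpr filter (0.61). Markers of fibroblasts of synovium and soft tissue were called higher at 1-week for 6 of 9 genes in MRL/MpJ, 6 in C57BL/6 and 3 in STR/ort, and at 2-weeks for 5 of 9 in each strain.

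Further lists separated injured from contralateral joints at these later times, by sums that did not overlap. In STR/ort at 1-week endothelium markers (1 of 6 called higher) summed to 387 to 494 CPM in injured against 277 to 337 CPM in contralateral joints, and neutrophil markers (4 of 8 called lower) to 8108 to 11572 CPM against 13240.0 to 17733 CPM. In STR/ort at 2-weeks the endothelium (1 of 6), cartilage (3 of 8) and bone (1 of 7) lists were higher, with 415 to 444 CPM against 342 to 368 CPM for endothelium. In C57BL/6 at 2-weeks the sums of endothelium were higher (398 to 454 CPM against 348 to 395 CPM) and those of neutrophils and macrophages lower, with 0 markers of these 3 lists called. The part of these lists and of the fibroblast list in the Timp1 and Timp2 differences was not tested.

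Timp4 fell at 1-day in each strain. In MRL/MpJ it was at 6.52, 5.57, 6.64, 6.62 and 7.32 CPM in injured joints and at 14.1, 14.7, 14.1, 15 and 12.6 CPM in contralateral joints. In C57BL/6 it was at 2.33, 1.98, 3.02, 3 and 3.35 CPM against 7.86, 4.42, 4.42, 4.5 and 5.6 CPM. In STR/ort it was at 1.03, 0.992, 1.72, 1.39 and 1.71 CPM against 6.86, 4.89, 5.98, 3.84 and 5.36 CPM. No groups overlapped, and the log2 fold changes were -1.09 ± 0.14, -0.92 ± 0.18 and -1.97 ± 0.19 (adjusted p = 6.39e-06, 0.000288 and 9.38e-09), so the fall in STR/ort was 3.92-fold (injured against contralateral joints).

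At 1-week Timp4 was at 2.09, 3.4, 2.41, 5.49 and 2.19 CPM in injured STR/ort joints against 9.05, 14.1, 7.07 and 5.85 CPM, a called difference of -1.52 ± 0.28 (adjusted p = 0.000163). In C57BL/6 it was at 5.33 to 6.85 CPM against 6.96 to 12.5 CPM and was called at -0.77 ± 0.23 (adjusted p = 0.0289). This call was lost without any of 7 of the 10 libraries in turn (-0.68 to -0.78, adjusted p = 0.052 to 0.0896), namely injured replicates 1, 3, 4 and 5 and contralateral replicates 1, 2 and 3. It was also lost with 1 or 2 RUVg factors (-0.67 and -0.46). In MRL/MpJ the groups overlapped (-0.48 ± 0.24, adjusted p = 0.355), and at 2-weeks no strain was called, with differences of -0.07, 0.27 and -0.41 ± 0.17 (adjusted p = 0.112) in MRL/MpJ, C57BL/6 and STR/ort. In STR/ort these groups did not overlap, with 11.3, 17.2, 17.5, 16.7 and 16.8 CPM in injured and 20.8, 24.1, 20.3, 19.8 and 21.4 CPM in contralateral joints, while those of the other strains did.

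Muscle and fat markers moved in several of the same comparisons as Timp4. Fast muscle markers were called lower at 1-day for 5 of 8 genes in STR/ort, with 0 called lower in the other strains and 1 called higher in C57BL/6. At 1-week 6 of 8 were called lower in STR/ort, 2 in C57BL/6 and 0 in MRL/MpJ. Their median log2 fold change at 1-day was -0.43 in MRL/MpJ, -0.38 in C57BL/6 and -0.72 in STR/ort, and their summed level in STR/ort was 16405 to 41494 CPM in injured and 30280 to 52802 CPM in contralateral joints. Of 6 fat markers, 3 were called lower at 1-day in STR/ort, 1 in C57BL/6 and 0 in MRL/MpJ. The part of muscle and fat in the Timp4 difference was not tested.

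Timp3 and Reck were called in 0 of 9 injury comparisons each by edgeR, where each had an unadjusted p below 0.05 in 5 of 9, and DESeq2 called 0 as well. Timp3 passed the adjusted p alone at 1-day in C57BL/6 (-0.41 ± 0.08, adjusted p = 0.000431) and STR/ort (-0.31 ± 0.08, adjusted p = 0.0106), at 1-week in STR/ort (-0.34 ± 0.08) and at 2-weeks in C57BL/6 (0.20 ± 0.06). At 1-day it was at 302 to 367 CPM in injured and 403 to 492 CPM in contralateral C57BL/6 joints, without overlap. Reck passed the adjusted p alone at 1-day in C57BL/6 (-0.42 ± 0.10) and STR/ort (-0.48 ± 0.10). In STR/ort it was at 16.5, 17.7, 16.4, 16.7 and 19.5 CPM in injured and at 21.1, 28.8, 20.7, 25.1 and 23.6 CPM in contralateral joints, again without overlap. All 4 of these 1-day differences were under 1.5-fold.

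**Figure D2:**
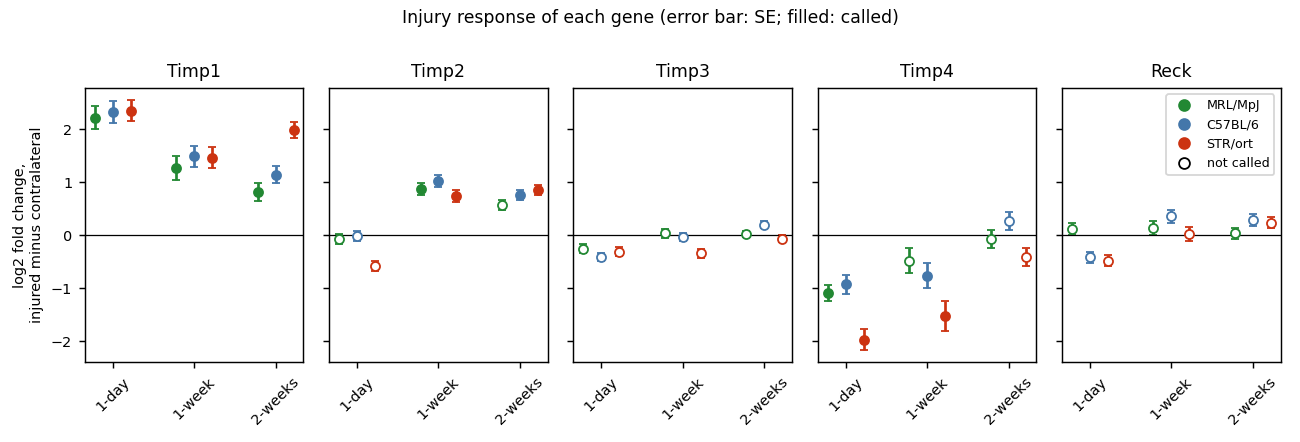
Log2 fold change between injured and contralateral joints (vertical axis, SE as bars) of the 5 genes at 3 times in 3 strains, with called differences filled. Timp1 lies above 0 in all 9 comparisons, Timp2 rises from 1-week, and Timp4 lies lowest in STR/ort at 1-day (-1.97).

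Whether the injury response differed between strains was tested as an interaction. At 1-day the fall of Timp4 was larger in STR/ort than in C57BL/6 by -1.04 ± 0.26 on the log2 scale (adjusted p = 0.0169, called), and compared with MRL/MpJ the difference was -0.88 ± 0.24 (adjusted p = 0.205). At 2-weeks the rise of Timp1 was larger in STR/ort than in MRL/MpJ by 1.17 ± 0.23 (adjusted p = 0.0156, called), and compared with C57BL/6 the difference was 0.84 ± 0.22 (adjusted p = 0.245). Neither was called in 1 fit of all libraries, where the differences were -1.034 (adjusted p = 0.0904) and 1.155 (adjusted p = 0.0523). The call of Timp1 was also lost without contralateral MRL/MpJ replicate 1 (1.113, adjusted p = 0.0506). At 1-day the Timp1 responses differed between strains by 0.02 to 0.13 with SE of 0.28 to 0.29, so that differences of moderate size could not be seen. The smallest adjusted p of Timp2 was 0.00733, for a response lower in STR/ort than in C57BL/6 at 1-day by -0.57 ± 0.13, which was under 1.5-fold. It was called without injured C57BL/6 replicate 2 or 3, contralateral C57BL/6 replicate 1 or 2, injured STR/ort replicate 5 or contralateral STR/ort replicate 1 (-0.60 to -0.65). The Reck response at 1-day was lower in STR/ort than in MRL/MpJ by -0.60 ± 0.15 (adjusted p = 0.103), which DESeq2 called (-0.59, adjusted p = 0.0353). The shares of all genes called were 0.162% (STR/ort against MRL/MpJ), 2.66% (STR/ort against C57BL/6) and 0.318% (C57BL/6 against MRL/MpJ) at 1-day, and 0.884%, 0.491% and 0% at 1-week. At 2-weeks they were 0.451%, 0.0462% and 0%. Where edgeR called 0 genes between C57BL/6 and MRL/MpJ, 505 genes had an unadjusted p below 0.05 at 1-week and 984 at 2-weeks, and DESeq2 called 0 and 2 genes.

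Between contralateral joints, Timp1 was higher in STR/ort than in MRL/MpJ at each time, with log2 differences of 1.60 ± 0.22 at 1-day, 2.39 ± 0.23 at 1-week and 1.01 ± 0.17 at 2-weeks. Against C57BL/6 it was called higher at 1-day (0.86 ± 0.20, adjusted p = 0.00188) and 1-week (1.80 ± 0.21), and at 2-weeks the difference was 0.37 ± 0.17 (adjusted p = 0.0983). The 1-day groups overlapped, and without contralateral STR/ort replicate 2, at 78.9 CPM against 30.5 to 42.8 CPM in the others, the difference of 0.58 was under 1.5-fold. C57BL/6 was called above MRL/MpJ at 1-day (0.74 ± 0.22) and 2-weeks (0.64 ± 0.18), both lost with 2 RUVg factors (0.70 and 0.58). The call at 2-weeks was also lost without contralateral MRL/MpJ replicate 4 (0.58). At 1-week the difference was 0.60 ± 0.23 (adjusted p = 0.0794), and it was called without contralateral MRL/MpJ replicate 4 (0.84), without injured STR/ort replicate 2 or 4 (0.60 each), by DESeq2 (0.61) and with 1 RUVg factor (0.65).

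Timp2 in contralateral joints was called higher in STR/ort than in MRL/MpJ at 1-day (1.03 ± 0.09) and 1-week (1.37 ± 0.12), than in C57BL/6 at 1-week (1.25 ± 0.11), and in C57BL/6 than in MRL/MpJ at 1-day (0.77 ± 0.09). Timp3 was called higher in STR/ort at 1-week against both MRL/MpJ (0.84 ± 0.08) and C57BL/6 (0.86 ± 0.08), with 518 to 581 CPM in STR/ort, 311 to 318 CPM in MRL/MpJ and 268 to 344 CPM in C57BL/6. At 2-weeks it was called against MRL/MpJ (0.65 ± 0.06). Timp4 was called lower at 1-day than in MRL/MpJ in both STR/ort (-1.33 ± 0.15) and C57BL/6 (-1.38 ± 0.15). At 2-weeks it was called higher in STR/ort than in MRL/MpJ (0.59 ± 0.17, adjusted p = 0.00862), at a fold of 1.5 that was lost in 4 of the runs that left out 1 library (without contralateral MRL/MpJ replicates 3 or 4 or contralateral STR/ort replicates 2 or 5, 0.52 to 0.58) and with 1 or 2 RUVg factors (0.46 and 0.51). Reck was called higher at 1-day than in MRL/MpJ in STR/ort (0.76 ± 0.10) and C57BL/6 (0.96 ± 0.10). The 2-weeks difference of Timp2 between STR/ort and MRL/MpJ, 0.57 ± 0.10 (adjusted p = 3.72e-05), was under 1.5-fold. It was called with housekeeping scaling (0.63), with 1 or 2 RUVg factors (0.63 and 0.78), with filterByExpr (0.60), and without injured MRL/MpJ replicate 4, contralateral MRL/MpJ replicate 1 or contralateral STR/ort replicate 3 or 5 (0.59 each). At 1-week the differences between STR/ort and MRL/MpJ of Timp4 (-0.38, adjusted p = 0.238) and Reck (0.52, adjusted p = 0.0024) were not called, except without contralateral STR/ort replicate 2 for Timp4 (-0.66) and replicate 3 for Reck (0.62). At 2-weeks Timp3 (0.51) and Timp4 (0.57) of STR/ort were above C57BL/6 by less than 1.5-fold, and passed that fold with housekeeping scaling (0.59 and 0.65). Timp4 also passed it with filterByExpr (0.60) and in 5 of the runs that left out 1 library (0.59 to 0.60). Of 45 tests over the 5 members, 17 were called higher and 2 lower in the strain named first. The shares of all genes called were 22.6%, 10.5% and 14.8% at 1-day for STR/ort against MRL/MpJ, STR/ort against C57BL/6 and C57BL/6 against MRL/MpJ, 24.4%, 22.2% and 8.53% at 1-week and 13.8%, 9.78% and 9.83% at 2-weeks.

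Tissue markers differed between the contralateral joints of the strains too. In order of time, 8, 7 and 6 of 9 fibroblast markers passed as higher in STR/ort than in MRL/MpJ, 5, 6 and 3 as higher in STR/ort than in C57BL/6, and 6, 2 and 3 as higher in C57BL/6 than in MRL/MpJ. At 1-week their summed level was 9831 to 26930 CPM in STR/ort, 2411 to 3907 CPM in C57BL/6 and 2433 to 3062 CPM in MRL/MpJ. Of 8 fast muscle markers, 7, 8 and 0 passed as lower in STR/ort than in MRL/MpJ, 0, 4 and 0 as lower in STR/ort than in C57BL/6, and 2, 0 and 0 as lower in C57BL/6 than in MRL/MpJ. At 1-week their sum was 27632 to 53522 CPM in STR/ort, 41574 to 71968 CPM in C57BL/6 and 61675 to 90151 CPM in MRL/MpJ. At 1-week STR/ort was also higher than MRL/MpJ and C57BL/6 in 7 and 7 of 7 bone, 7 and 8 of 8 cartilage and 4 and 3 of 8 macrophage markers, without overlap of the sums, and lower in 4 and 4 of 4 erythroid markers. Against MRL/MpJ the counts at 1-day and 2-weeks were 7 and 3 of 7 for bone, 7 and 7 of 8 for cartilage and 2 and 2 of 8 for macrophages among the higher, and 4 and 4 of 4 erythroid markers and 1 cartilage marker at 2-weeks among the lower. The part of these lists in the differences of the inhibitors was not tested.

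Between injured joints, Timp1 was ordered STR/ort, C57BL/6, MRL/MpJ at each time, and all 9 differences were called. STR/ort exceeded MRL/MpJ by 1.73 ± 0.19 at 1-day, 2.58 ± 0.19 at 1-week and 2.18 ± 0.15 at 2-weeks, that is 3.32-fold, 5.96-fold and 4.52-fold. It exceeded C57BL/6 by 0.88 ± 0.19, 1.76 ± 0.19 and 1.21 ± 0.15, and C57BL/6 exceeded MRL/MpJ by 0.85 ± 0.19, 0.81 ± 0.19 and 0.96 ± 0.16. Groups overlapped in 1 of the 9, C57BL/6 against MRL/MpJ at 1-day, where C57BL/6 replicate 2 was at 90.1 CPM and MRL/MpJ replicate 2 at 95.6 CPM.

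Timp2 of injured joints was called higher in STR/ort at 1-week against MRL/MpJ (1.24 ± 0.11) and C57BL/6 (0.97 ± 0.11), at 2-weeks against MRL/MpJ (0.85 ± 0.10), and in C57BL/6 against MRL/MpJ at 1-day (0.83 ± 0.09). Timp4 of injured joints was called lower at 1-day in STR/ort than in MRL/MpJ (-2.21 ± 0.19, a fold of 4.64) and C57BL/6 (a fold of 1.99, log2 SE 0.21, adjusted p = 0.000613), and in C57BL/6 than in MRL/MpJ (a fold of 2.33, log2 SE 0.17, adjusted p = 1.32e-06). At 1-week it was called lower in STR/ort than in MRL/MpJ (-1.42 ± 0.26) and C57BL/6 (-0.92 ± 0.27), where the groups of the last comparison overlapped, but with 2 RUVg factors these differences were -0.66 (adjusted p = 0.222) and -0.37 (adjusted p = 0.466). Timp3 and Reck were called in 0 of 9 comparisons each between injured joints by edgeR, with an unadjusted p below 0.05 in 7 and 6 of them, and DESeq2 called 0 as well. At 1-week Timp3 was higher in STR/ort than in MRL/MpJ by 0.46 and than in C57BL/6 by 0.55, both under 1.5-fold and both called with 2 RUVg factors (0.63 and 0.70). The difference from C57BL/6 was also called without injured C57BL/6 replicate 3 or injured STR/ort replicate 1 (0.59 each). At 2-weeks both genes were 1.47-fold higher in STR/ort than in MRL/MpJ (adjusted p = 1.44e-08 for Timp3 and 6.89e-05 for Reck), and both passed the fold with housekeeping scaling (0.64 each), with 2 RUVg factors (0.70 and 0.61) and without injured STR/ort replicate 3 (0.59 and 0.63). Reck also passed it with 1 RUVg factor (0.61) and without injured MRL/MpJ replicate 2 (0.63). Between C57BL/6 and MRL/MpJ at 2-weeks, Timp2 (0.42) was called with 2 RUVg factors (0.62), and Timp4 (0.36, adjusted p = 0.127) without injured MRL/MpJ replicate 4 (0.60). Of 45 tests over the 5 members, 13 were called higher and 5 lower. The shares of all genes called were 20.3%, 12.4% and 16.3% at 1-day in the same order of strains, 29.5%, 25.1% and 9.47% at 1-week and 18.9%, 10.4% and 11.5% at 2-weeks.

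In the injured joints, 6, 7 and 6 of 9 fibroblast markers passed as higher in STR/ort than in MRL/MpJ, again in order of time. Between STR/ort and C57BL/6, 1, 7 and 5 were higher and 3, 1 and 0 lower in STR/ort, and between C57BL/6 and MRL/MpJ 6, 2 and 3 were higher in C57BL/6. Their sum at 1-week was 27347 to 42287 CPM in STR/ort, 10498 to 14351 CPM in C57BL/6 and 8487 to 10516 CPM in MRL/MpJ. Of the 8 fast muscle markers, 8, 8 and 0 were lower in STR/ort than in MRL/MpJ, 7, 8 and 0 lower in STR/ort than in C57BL/6, and 1, 0 and 0 lower in C57BL/6 than in MRL/MpJ. At 1-week the muscle sum was 13813 to 30574 CPM in STR/ort, 27986 to 55040 CPM in C57BL/6 and 43662 to 72596 CPM in MRL/MpJ. Other lists separated STR/ort from MRL/MpJ at 1-week as well. Bone markers (3 of 7 higher) summed to 14010.0 to 25224 CPM in STR/ort and 7128 to 10105 CPM in MRL/MpJ, and cartilage markers (7 of 8 higher) to 4282 to 8148 CPM and 1566 to 3493 CPM. Endothelium (3 of 6) and fat (1 of 6) markers were higher too, without overlap of the sums. Neutrophil markers (5 of 8 lower) summed to 8108 to 11572 CPM in STR/ort and 13507 to 17916 CPM in MRL/MpJ, and erythroid markers (4 of 4 lower) to 736 to 2250.1 CPM and 3167 to 3963 CPM. At 1-day the sums of STR/ort and MRL/MpJ also did not overlap for macrophages (2 of 8 higher, 2446 to 2905 CPM against 1902 to 2374 CPM), cartilage (6 of 8 higher, 3689 to 5832 CPM against 1808 to 3028 CPM) and erythroid markers (4 of 4 lower, 1479 to 2073 CPM against 3698 to 4146 CPM). At 2-weeks they did not overlap for cartilage (7 of 8 higher, 4583 to 6661 CPM against 1485 to 2779 CPM), bone (4 of 7 higher, 13706 to 18041 CPM against 6498 to 9979.9 CPM) and erythroid markers (4 of 4 lower, 899.6 to 1550.1 CPM against 2317 to 4181 CPM). What part these lists had in the differences of Timp1, Timp2 and Timp4 was not tested.

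**Figure D3:**
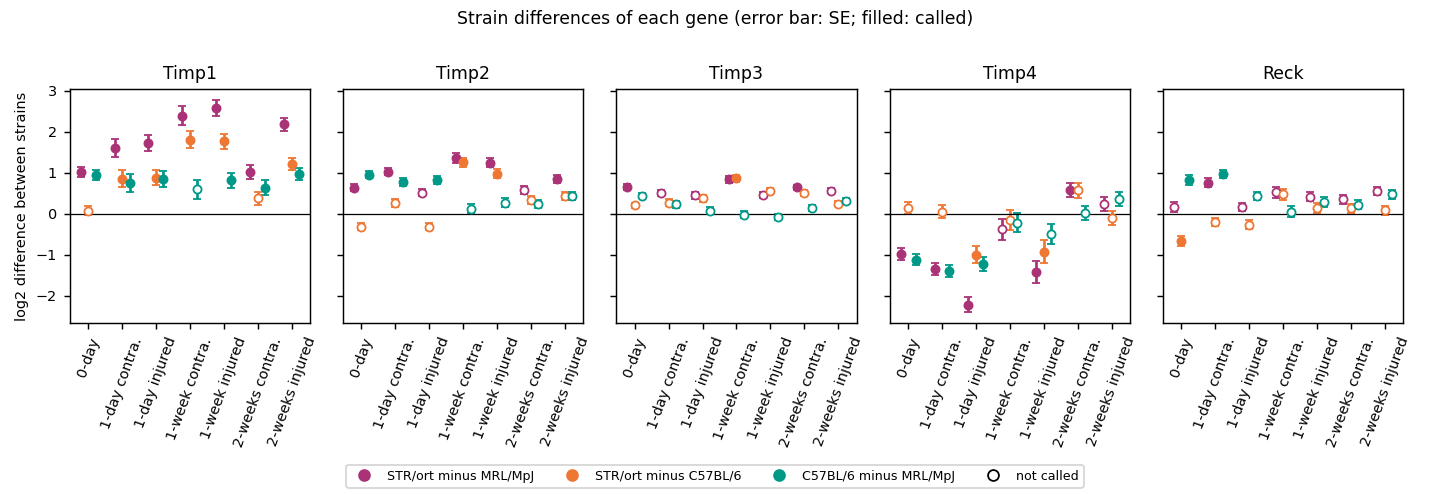
Log2 difference between strains (vertical axis, SE as bars) of the 5 genes at 0-day and in contralateral and injured joints at 3 times, with called differences filled. Timp1 differs most between STR/ort and MRL/MpJ in injured joints at 1-week (2.58), and Timp4 of STR/ort lies below MRL/MpJ at 1-day (-2.21 in injured joints) and not at 2-weeks.

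Times were compared within the first batch only. From 1-day to 1-week Timp1 of injured joints fell in MRL/MpJ (-1.17 ± 0.19, adjusted p = 1.14e-05) and C57BL/6 (-1.21 ± 0.19, adjusted p = 1.95e-06), while in STR/ort the difference was -0.33 ± 0.18 (adjusted p = 0.154) and the groups overlapped. Whether these changes differ between strains was not tested. Timp2 of injured joints rose in MRL/MpJ (0.96 ± 0.10) and STR/ort (1.68 ± 0.10, 3.2-fold, adjusted p = 7.13e-22), and its difference of 0.40 ± 0.10 in C57BL/6 was under 1.5-fold. Timp4 rose in C57BL/6 (1.07 ± 0.23) and STR/ort (1.15 ± 0.27). Fibroblast markers of injured joints were called higher at 1-week than at 1-day for 4 of 9 genes in MRL/MpJ, 0 in C57BL/6 and 6 in STR/ort, with 1 lower there. Their sum went from 4238 to 6820 CPM to 8487 to 10516 CPM in MRL/MpJ and from 10310 to 15900 CPM to 27347 to 42287 CPM in STR/ort. In C57BL/6 it was 9063 to 15033 CPM and 10498 to 14351 CPM. Other lists also separated 1-week from 1-day in injured joints, by sums that did not overlap. In STR/ort bone sums were higher at 1-week (14010 to 25224 CPM against 9376 to 13131 CPM), endothelium sums were higher and neutrophil sums lower. In C57BL/6 erythroid sums were higher and macrophage and fat sums lower. The part of all these lists in the differences of Timp1, Timp2 and Timp4 was not tested.

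In contralateral joints, Timp1 and Timp2 changed in opposite directions in STR/ort and C57BL/6. From 0-day to 1-week, Timp1 rose in STR/ort (1.06 ± 0.22, adjusted p = 0.000103) with 28.2 to 41 CPM before injury and 53.7 to 86.1 CPM after it, and Timp2 rose as well (0.76 ± 0.11). In C57BL/6 Timp2 fell (-0.78 ± 0.10, adjusted p = 1.48e-07) from 409 to 521 CPM to 245 to 297 CPM, Reck fell (-0.72 ± 0.12, adjusted p = 6.03e-06) and Timp1 fell (-0.63 ± 0.22, adjusted p = 0.0417). Timp4 was at 0.46 ± 0.20 (adjusted p = 0.116) and was called without 1-week replicate 4 (0.59). The Timp1 call in C57BL/6 was lost without any of 7 libraries in turn (-0.54 to -0.65, adjusted p = 0.057 to 0.162), namely 0-day replicates 1, 2 and 4 and 1-week replicates 1, 2, 3 and 4. It was also lost with 2 RUVg factors (-0.61, adjusted p = 0.0598). In MRL/MpJ 0 of the 5 members were called by edgeR, with 1 at an unadjusted p below 0.05, and 0 by DESeq2. From 0-day to 1-day edgeR called 0 of 5 in any strain, where 1 member in MRL/MpJ, 1 in C57BL/6 and 4 in STR/ort had an unadjusted p below 0.05. Timp4 in STR/ort at -0.58 ± 0.21 (adjusted p = 0.0314) was under 1.5-fold by a small margin and was called by DESeq2 (-0.59), with RLE factors (-0.59), with housekeeping scaling (-0.62), and without 0-day replicate 1 or 2 or 1-day replicate 1 or 3 (-0.60 to -0.69). Timp1 in STR/ort was at 0.50 ± 0.21 (adjusted p = 0.0695) and was called without 0-day replicate 1 (0.64) or 1-day replicate 1 (0.62). The shares of all genes called from 0-day to 1-day were 0.0924% in MRL/MpJ, 0.0693% in C57BL/6 and 9.92% in STR/ort, from 0-day to 1-week 0% (991 genes at an unadjusted p below 0.05, and 0 by DESeq2), 5.72% and 13.6%, and between injured joints of 1-day and 1-week 3.11%, 4.47% and 13.9%.

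Tissue markers also differed between these contralateral groups. From 0-day to 1-week in STR/ort, 8 of 8 fast muscle markers were called lower and 5 of 9 fibroblast markers and 4 of 8 macrophage markers higher, and already from 0-day to 1-day 8 of 8 fast muscle markers were called lower there. In C57BL/6, 8 of 8 measured cartilage markers, 7 of 7 bone markers, 5 of 9 fibroblast markers and 3 of 6 fat markers were called lower. In MRL/MpJ 0 markers of these lists were called. By sums that did not overlap, bone markers were also higher at 1-week than at 0-day in STR/ort (11398 to 16535 CPM against 7803 to 10332 CPM). Erythroid sums were higher in C57BL/6 (3264 to 4760 CPM against 2487 to 2966 CPM). The part of all these markers in the differences of the inhibitors was not tested.

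Levels of different genes were compared as CPM per kb of exon, using the union of exons in GENCODE vM21 (888 bases for Timp1, 3896 for Timp2, 8144 for Timp3, 5894 for Timp4 and 4779 for Reck). On this scale Timp2 was the highest of the 5 in 18 of 21 groups and Timp1 in the other 3, the injured joints of each strain at 1-day, while Timp4 was the lowest in all 21. With the longest transcript as length, which is 4722 bases for Timp3, Timp3 led in 2 groups and Timp2 in 16. At 0-day Timp1 made up 13.5% to 16.3% of the summed level of Timp1 to Timp4 in the 4 MRL/MpJ libraries, 16% to 18.2% in C57BL/6 and 17.7% to 22.2% in STR/ort. In injured joints at 1-day the share was 44.8% ± 4.2 in MRL/MpJ, 49% ± 6.06 in C57BL/6 and 65.8% ± 5.77 in STR/ort (SD, n = 5 each). With the longest transcript as length these 1-day shares were lower, at 38.4%, 44.0% and 59.7%. In injured joints at 2-weeks the share by the union of exons was 17.1% ± 1.15, 23.4% ± 2.72 and 34.9% ± 6.34.

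The summed level of Timp1 to Timp4 was set against that of the 16 measured genes of 23 listed matrix metalloproteinases, in CPM per kb, as a description of RNA and not of enzyme activity. The log2 ratio was below 0 in every library. At 0-day it was -2.27 ± 0.13 in MRL/MpJ, -1.95 ± 0.15 in C57BL/6 and -1.59 ± 0.10 in STR/ort (SD, n = 4). At 1-day it was -1.59 ± 0.13 in injured and -2.03 ± 0.14 in contralateral MRL/MpJ joints, -1.15 ± 0.27 and -1.92 ± 0.17 in C57BL/6, and -0.80 ± 0.15 and -1.43 ± 0.17 in STR/ort (n = 5). At 1-day the inhibitor side was thus higher relative to this protease sum in injured joints, and the libraries of injured and contralateral joints did not overlap in any strain. Much of the sum came from Mmp9 and Mmp13, called in 0 of 9 injury comparisons each. With the longest transcript as length they were 24.6% and 23.6% of it in injured MRL/MpJ joints at 1-day. In C57BL/6 they were 20.4% and 24.3%, and in STR/ort 15.8% and 33.6%. Mmp3 made up 1.58%, 2.37% and 6.18% in the same order of strains. At 1-week the injured and contralateral means were -1.04 ± 0.21 and -1.40 ± 0.31 in STR/ort, and here the libraries overlapped.

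**Figure D4:**
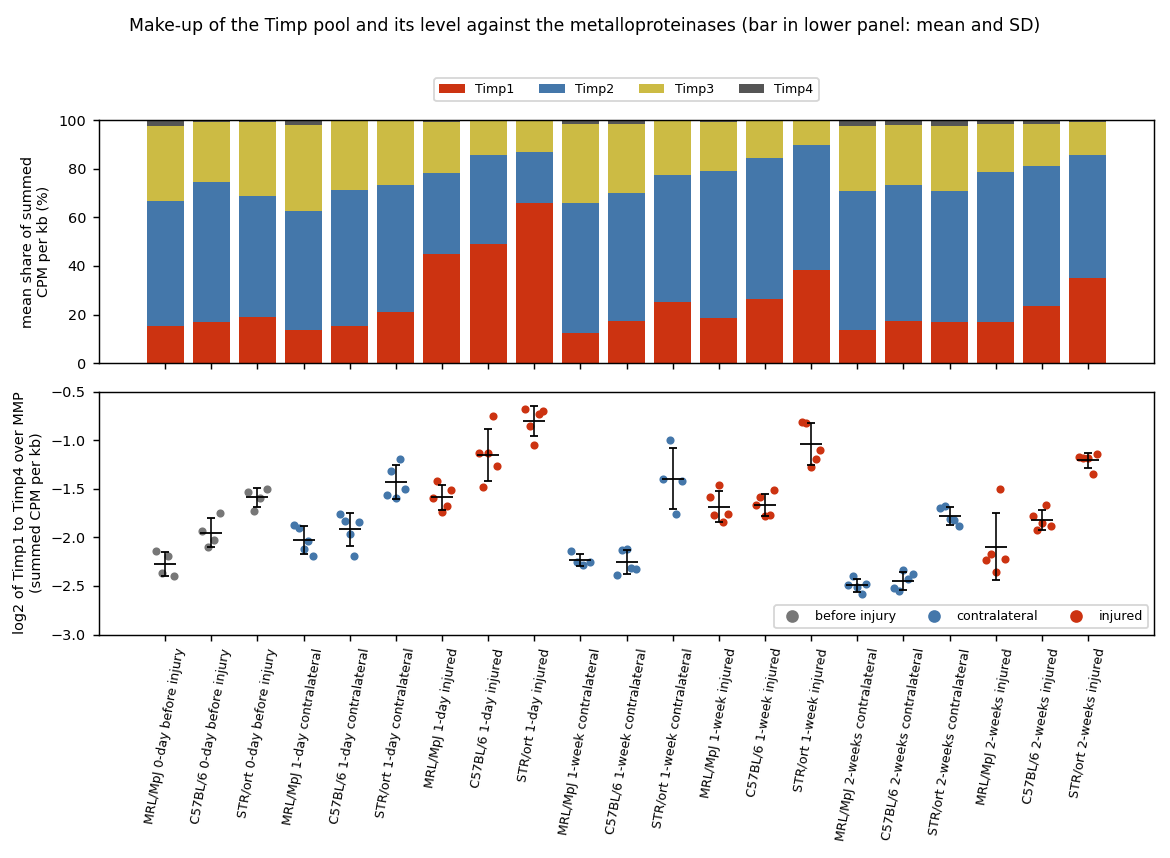
Mean share of Timp1 to Timp4 in their summed CPM per kb (upper panel, percent) and the log2 ratio of that sum to the summed metalloproteinases (lower panel, 1 point per library, mean and SD as bars) in the 21 groups. Timp1 takes 65.8% of the pool in injured STR/ort joints at 1-day (59.7% with the longest transcript as length), where the ratio is also highest (-0.80).

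Among the proteases the inhibitors act on, Mmp14, the activator of the gelatinase Mmp2, was called in the same 5 injury comparisons as Timp2. Mmp2 was called in these and in MRL/MpJ at 2-weeks, where Timp2 was under 1.5-fold. It was not called at 1-day and was called higher in injured joints at 1-week in MRL/MpJ (1.35 ± 0.15), C57BL/6 (1.67 ± 0.14) and STR/ort (1.27 ± 0.15), and at 2-weeks in each strain (1.01, 1.17 and 1.44). Mmp14 was called at 1-week in each strain (0.93, 1.26 and 1.53) and at 2-weeks in C57BL/6 (0.65) and STR/ort (1.09). The stromelysin Mmp3 was called higher at 1-day in each strain, as Timp1 was (2.41 ± 0.30, 2.08 ± 0.25 and 2.04 ± 0.22). The aggrecanase Adamts4 was called higher at 1-day (1.81, 1.68 and 1.61), while Adamts5, Mmp9, Mmp13, Adam10 and Adam17 were called in 0 of the 9 injury comparisons by edgeR, with an unadjusted p below 0.05 in 7, 2, 1, 1 and 3 of them. Of the 16 measured metalloproteinases, 2, 4 and 2 were called higher at 1-day in MRL/MpJ, C57BL/6 and STR/ort, 5, 5 and 6 at 1-week and 3, 6 and 6 at 2-weeks, and at most 1 was called lower. Over all genes, in the same order of strains, 2.02%, 5.6% and 4.31% were called in either direction at 1-day, 3.13%, 5.82% and 9.21% at 1-week and 1.16%, 2.95% and 4.66% at 2-weeks. In STR/ort at 1-day the smallest adjusted p among those higher was that of Mmp3, and in MRL/MpJ and C57BL/6 it was that of Mmp19 (1.23 and 1.39), while in STR/ort Mmp15 (-0.73 ± 0.17) was the one lower.

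At 1-day, where 2.02%, 5.6% and 4.31% of all genes were called, the other lists were counted in the same order of strains. Of 15 listed ADAM and ADAMTS proteases, 3, 4 and 3 were called higher at 1-day, led in MRL/MpJ and STR/ort by Adamts4 and in C57BL/6 by Adam9 (0.83), with Adam33 lower in STR/ort (-1.13 ± 0.16). Of 10 receptors and partners, 1, 1 and 0 were called higher at 1-day. These were Lrp1, the endocytic receptor that clears inhibitors and proteases, in MRL/MpJ (0.62 ± 0.10) and C57BL/6 (0.69 ± 0.10), and its difference in STR/ort was 0.30 ± 0.10. Cd63, a cell surface partner of Timp1, was called in 0 of 9 injury comparisons by edgeR, with an unadjusted p below 0.05 in 8, and its largest difference, 0.53 ± 0.08, was that in C57BL/6 at 1-day. Of 16 measured genes listed as other protease inhibitors, 2, 4 and 2 were called higher at 1-day, while A2m, a broad protease inhibitor of plasma, was called lower in C57BL/6 (-0.60). That list also holds Pcolce, an enhancer of a protease and not an inhibitor. Of 18 listed inducers of Timp1, 5, 6 and 7 were called higher and 0 lower at 1-day. Osmr, the receptor of oncostatin M, led in MRL/MpJ (0.85 ± 0.11) and C57BL/6 (1.01 ± 0.11), and the cytokine Il11 in STR/ort (3.98 ± 0.32). The median log2 fold change of the inducers was 0.35, 0.55 and 0.49, against 0.01, -0.02 and -0.02 over all genes. What part they had in the Timp1 difference was not tested.

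The genes whose group means ran most like those of each member were found by Pearson correlation of mean log2 CPM over the 21 groups, among 14417 genes with a mean of at least 1 CPM. These points share libraries and muscle content, and the values are descriptions. Nearest to Timp1 were Akr1b8 (r = 0.967), Tgfbi (0.962) and Pcsk5 (0.957), and nearest to Timp2 were Mmp2 (0.976), Matn2 (0.975) and Klhl13 (0.973). Nearest to Timp3 were Wif1 (0.931), Smim14 (0.93) and Cdo1 (0.928), to Timp4 Kcnc1 (0.932), Clic5 (0.929) and Perm1 (0.925), and to Reck Fbln1 (0.889), Fam102a (0.889) and Slc35e3 (0.881). Among the members themselves r ranged from -0.737 for Timp1 with Timp4 to 0.675 for Timp2 with Reck. These values span both batches. Over the 15 groups of the first batch alone, the r of the named nearest genes was 0.852 to 0.979, and that among the members was -0.897 and 0.708 for the same pairs, 0.533 for Timp3 with Reck (0.296 over all groups) and -0.391 for Timp4 with Reck (-0.0401).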

How the data were processed

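RNA-seq of mouse knee joints was analysed in 100 libraries of 21 groups. According to the submitters' processing notes and the paper's methods, the authors aligned poly(A)-selected reads to mm10 with TopHat2 (version 2.0.11) and counted them per gene with featureCounts, and the deposited values are whole-number counts without normalization. The table lists 17313 genes. After 3 repeated entries were dropped 17310 were tested, and 24 gene names had become dates, as spreadsheets do. Requiring 2 or more counts in 5 or more libraries removed 0 genes.

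The quasi-likelihood test of edgeR (version 4.0.16, in R 4.3.3) was run on the counts with TMM factors and a Benjamini-Hochberg adjustment over all genes, and called at an adjusted p below 0.05 and a fold above 1.5. The 0-day libraries, each later time point and the 70 libraries of the first batch entered separate fits, with 1 mean per group. For levels, CPM were computed after TMM scaling of the 100 libraries together, with a prior count of 2 on the log2 scale. Comparisons within a time point share groups. On simulated counts of 17310 genes for injured against contralateral STR/ort joints at 1-day, 99% of 2-fold and 100% of 4-fold changes were recovered, with 5 false calls. The changes were put only into genes above a set mean count, and 1 spread was assumed for all genes. Recovery for genes with few counts or a wider spread was therefore not tested.

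At 2-weeks animal numbers in the labels tie 15 pairs of joints, so replicate numbers pair the joints there (correlation of deviations from group means -0.161 to 0.262). In STR/ort at 1-week the 4 pairs were at 0.102 to 0.231. A C57BL/6 pair at 1-week reached 0.269, so the correlation cannot show which joints are paired. At 1-day and 1-week only a number is shared. The alternatives were RLE size factors, scaling by 25 housekeeping genes, RUVg with 1 and 2 factors, DESeq2 (version 1.42.0), filterByExpr, no filter, 1 fit of all libraries, a replicate block and each library left out in turn.

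The members were tested in every comparison, and the text names mainly those called. Of the lists of related genes, the text names those with the smallest adjusted p and 11 direct partners, except 1 gene that is not reported here. The members and lists were chosen with earlier results of these data known. Intervals and SE cover the spread between libraries.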

Additional observations from a re-analysis of the deposited data

Results flagged for a closer look

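In 105 groups of 4 or 5 libraries (5 genes in 21 groups), 11 libraries stood apart from the rest of their group by Dixon's criterion, which chance alone exceeds in about 1 of 20 groups. For Timp1 these were injured MRL/MpJ replicate 2 at 1-day (95.6 CPM, others 64.4 to 71.2), contralateral C57BL/6 replicate 5 at 1-day (32.5 CPM, others 23.3 to 25.3) and contralateral STR/ort replicate 2 at 1-day (78.9 CPM, others 30.5 to 42.8). For Timp2 they were injured C57BL/6 replicate 5 at 1-week (702 CPM, others 478 to 526) and injured MRL/MpJ replicate 3 at 2-weeks (255 CPM, others 364 to 404). For Timp3 they were injured MRL/MpJ replicate 3 at 1-week (359 CPM, others 301 to 310) and contralateral STR/ort replicate 2 at 2-weeks (384 CPM, others 358 to 361). For Timp4 it was injured STR/ort replicate 1 at 2-weeks (11.3 CPM, others 16.7 to 17.5). For Reck they were injured C57BL/6 replicate 3 at 1-day (14.7 CPM, others 21.3 to 23.4), contralateral C57BL/6 replicate 5 at 1-week (21.4 CPM, others 14.5 to 16.3) and injured STR/ort replicate 3 at 2-weeks (21.4 CPM, others 27.7 to 29.2).

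The test of the interaction between strain and injury marked 2 differences. The Timp4 response at 1-day was lower in STR/ort than in C57BL/6 by -1.04 on the log2 scale, and the Timp1 response at 2-weeks was higher in STR/ort than in MRL/MpJ by 1.17. Both lost the call in 1 fit of all libraries, where the differences were -1.034 and 1.155.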

How the results depend on the processing

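Of 240 tests of the 5 members 78 were called, and no called difference changed sign under any alternative. RLE size factors lost 0 calls and gained 2, scaling by housekeeping genes lost 0 and gained 7, DESeq2 lost 0 and gained 4, filterByExpr lost 0 and gained 3, and no filter changed 0. RUVg lost 3 and gained 3 with 1 factor, and lost 8 and gained 6 with 2 factors. With the replicate block, 0 calls of injury or interaction were lost and 1 was gained, Timp2 in STR/ort at 1-day (-0.59), where the joints share only a number. At 2-weeks, where the joints are paired, and in STR/ort at 1-week, where they share only a number, the block changed 0 calls. The 2 calls of strain by injury interaction became 0 in 1 fit of all libraries, which assumes 1 spread over both batches, and ranged from 1 to 3 when each library was left out. Leaving out libraries lost 23 of 2576 calls and gained 39 of 6034 differences not called. In most of these runs the library left out belonged to none of the groups compared, so the counts say little about single calls. The injury call of Timp4 in C57BL/6 at 1-week was lost in 7 runs. So was that of Timp1 in contralateral C57BL/6 joints from 0-day to 1-week. Housekeeping scaling moved the median of all genes by more than 0.1 on the log2 scale in 8 comparisons (from -0.182 to 0.147). The 7 calls that it gained lay in other comparisons, where it moved the median of all genes in the direction of the member by 0.0602 to 0.0817 or by -0.0742 and -0.0414, close to the move of the member itself. Timp4 is limited by depth, with as few as 9 counts in a library.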
